A study of Mus musculus with 18 samples.

Results

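The 8 genes described here are Ptprc, Plcg2, Coro1a, Fmnl1, Rin3, Arap1, Agap2 and Kif13a, taken by symbol from the 54232 gene identifiers of the count table. They were chosen on their own nascent RNA, because their level is high in S0-Low, the earliest sorted population, and near 0 or low in S3, the latest. That a fall happens somewhere between S0-Low and S3 is therefore fixed by the choice of the genes. The values of S0-Low and S3 are given as a description with no test, and the 8 genes were tested only between S0-Medium, S1, S2 and Lin+, which the choice did not use. S0-Medium, S1 and S2 lie between S0-Low and S3, so the choice still bears on falls between them and on low levels in S2.

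All cells came from fetal livers of C57BL/6 mouse embryos at embryonic days e12.5 to e13.5, and all were rested for 6 h after sorting and labelled with 500 µM 4-thiouridine (4sU) for 45 min. 4sU is a uridine analogue that cells build into new RNA, so that RNA made during the labelling can be pulled down and sequenced (nascent RNA). Of the 18 libraries, 15 came from 5 lineage-negative populations with 3 libraries each, sorted on CD71 (the transferrin receptor) and Ter119 (a surface marker of late erythroblasts): S0-Low (CD71-, Ter119-), S0-Medium (CD71 medium, Ter119-), S1 (CD71 high, Ter119-), S2 (CD71 high, Ter119 medium) and S3 (both high). The other 3 came from Lin+ cells, which bind at least 1 antibody of a panel against CD41, CD45R, CD3e, CD11b and Ly-6G/6C. The study calls the 3 libraries of a population biological replicates, and no source used here says whether they came from separate litters.

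Blood cells other than erythrocytes move, take up material and respond to surface receptors, and the 8 genes serve these tasks. A surface phosphatase sets the activity of kinases next to immune receptors, a phospholipase turns receptor signals into calcium release, actin regulators shape the cell cortex, and regulators of Rab and Arf GTPases steer vesicles and membrane. Erythroblasts pass from a progenitor that still shares programmes with the myeloid lineages to a cell devoted to haemoglobin, and lose the nucleus at the end.

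Library totals ran from 9452476 counts in S0-Low replicate 3 to 40567976 in S1 replicate 1. Values below are normalized counts, that is, counts put on one common library size by TMM factors (trimmed mean of M-values), and 3 counts in a library correspond to between 1.99 and 7.97 normalized counts. The labels call every population primary erythroblasts. The summed level of 8 erythroid marker genes was 16011 to 34134 in S0-Low and 778205 or more in S3, and was lowest in Lin+, at 8777 to 11232, so the Lin+ libraries went against that label. The summed level of 8 stem and progenitor markers was 56286 to 81812 in S0-Low, 34692 to 55899 in S0-Medium, 13278 to 17679 in S1, 1291 to 8115 in S2, 907 to 952 in S3 and 48673 to 73832 in Lin+, with no overlap between neighbouring erythroid populations. Among 9 myeloid markers, Itgam, which encodes CD11b, was listed at 0 in every library, also in Lin+, although an antibody to CD11b was in the sorting panel. Whether the index used for counting held a usable Itgam transcript is not known here, so this 0 is not read as absence of its RNA.

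The myeloid markers were highest in the same populations as most of the 8 genes. Between S1 and S2 the summed level of the 8 genes did not overlap, although that of Coro1a did. Of the counts of the 8, 52.7% to 56.7% in S1 and 72.3% to 76.8% in S2 were those of Kif13a. The myeloid markers overlapped there, but 5 and 6 of the 9 were at or under 3 counts in every library, so this overlap tells little. Their summed normalized count was 16597 to 27863 in S0-Low, 572 to 6737 in S0-Medium, 71.6 to 124 in S1, 51.4 to 136 in S2, 1.84 to 176 in S3 and 107888 to 189605 in Lin+. S0-Medium replicate 1 stood apart with 6737, against 1046 and 572 in the other two libraries of that population. The summed level of 9 lymphoid markers was 661 to 1136 in S0-Low and 0 to 38.9 in S3, with Cd3e and Rag1 at 0 in both populations. The part of myeloid, lymphoid or progenitor cells in the levels of the 8 genes was not tested. In these bulk libraries, fewer cells that transcribe a gene and less transcription per cell cannot be told apart.

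The DNA just before a gene bears on genes that fall together, and the 5 genes of the 8 for which at least 51 bases of the RefSeq promoter window (GRCm38.p6) lie before the first annotated base of the gene are shown here, up to 150 bases each, 5′ to 3′ along the gene. Capitals mark CACCC, the core of the motif bound by KLF factors, or its reverse complement.
Coro1a, chr7:126704817-126704966, minus strand: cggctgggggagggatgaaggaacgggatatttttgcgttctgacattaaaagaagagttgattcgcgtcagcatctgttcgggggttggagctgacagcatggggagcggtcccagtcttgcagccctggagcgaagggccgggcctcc
Plcg2, chr8:117498125-117498274, plus strand: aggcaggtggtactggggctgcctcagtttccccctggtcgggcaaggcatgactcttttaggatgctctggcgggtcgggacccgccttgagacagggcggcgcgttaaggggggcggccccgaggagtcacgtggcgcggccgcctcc
Fmnl1, chr11:103170888-103171003, plus strand: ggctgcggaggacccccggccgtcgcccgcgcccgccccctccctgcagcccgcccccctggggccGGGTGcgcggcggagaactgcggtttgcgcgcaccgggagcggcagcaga
Arap1, chr7:101347819-101347920, plus strand: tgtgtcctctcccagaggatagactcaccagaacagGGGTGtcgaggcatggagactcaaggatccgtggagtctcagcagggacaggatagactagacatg
Kif13a, chr13:46929918-46929968, minus strand: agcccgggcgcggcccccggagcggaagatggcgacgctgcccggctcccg
The stretch of Kif13a was 82.4% G and C and that of Arap1 54.9%, so the genes did not share one kind of base composition.

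Over the whole 300-base windows (250 bases before to 50 after a start, 13 windows for the 8 genes and 32851 for all genes), the G and C content ran from 33.7% in a window of Ptprc to 86.7% in that of Kif13a, beside a median of 52.7% over all windows. Motifs were read on both strands. Counts are given per window, since a gene can have more than 1. GAGGAA, a core bound by PU.1 and other ETS factors, was found in 3 of the 13 windows (those of Fmnl1, Ptprc and Arap1) and in 28.3% of all windows. The RUNX core TGTGGT was found in 0 of the 13 and in 16.8% of all windows. The AP-1 site TGACTCA was found in 0 of the 13 and in 5.202% of all windows. AGATAA, a site of the erythroid factor Gata1 and its relatives, was found in 2 of the 13 (Ptprc and Plcg2) and in 11.2% of all windows. The KLF core CACCC was found in 8 of the 13, which belong to 5 genes, and in 57.5% of all windows. The motif of ETS factors with the letters CCGGAA was found in 1 of the 13 (Coro1a) and in 14.9% of all windows. The TATA box core, TATAAA, was found in 2 of the 13 (Ptprc and Arap1) and in 13.6% of all windows. None of the motifs searched was shared by all 8 genes in these windows.

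Ptprc (ENSMUSG00000026395, chromosome 1, 138062859 to 138175756, minus strand) encodes CD45, the receptor-type tyrosine phosphatase on the surface of nearly all nucleated blood cells. Its normalized counts in S0-Low were 4197, 2909 and 5416, and in S0-Medium 1734, 381 and 207. In S1 they were 29.3, 21.7 and 24.6. Each library of 1 population lay above each library of the next over these 3 populations. In S2 the raw counts were 0, 0 and 2, and in S3 they were 0 in all 3 libraries, so S2 and S3 overlapped. In Lin+ the level was 7165, 9115 and 14287, above every erythroid library. Ptprc kept 18.5% of its S0-Low mean in S0-Medium (SD 20.0, n = 3), or 7.04% without S0-Medium replicate 1, and 0.603% in S1 (SD 0.0918). CD45R in the sorting panel is a form of the Ptprc product, so the sort itself bears on Ptprc in Lin+ against the lineage-negative populations.

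Plcg2 (ENSMUSG00000034330, chromosome 8, 117498275 to 117635142, plus strand) encodes phospholipase C gamma, which acts downstream of immune receptors in B cells and myeloid cells. Its normalized counts in S0-Low were 14265, 9428 and 8575. S0-Medium held 7684, 2776 and 1333, and S1 held 682, 557 and 283. The fall was gradual, with no overlap between neighbouring populations. In S2 the level was 111, 111 and 45.5, and in S3 there was 1 count in 1 library and 0 in the other two. Lin+ held 21541, 15380.0 and 14813. The mean in S1 was 4.72% of S0-Low and in S2 0.828%.

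Coro1a (ENSMUSG00000030707, chromosome 7, 126699774 to 126704816, minus strand) encodes coronin 1A, an actin-binding protein of leukocytes. The S0-Low libraries differed more for Coro1a than for the other members, at 7947, 5510.1 and 2834. S0-Medium held 1873, 619 and 402, and S1 held 30.1, 57.6 and 70.5. In S2 the values were 62.3, 2.56 and 2.94, so the S2 mean rested on replicate 1 and its range overlapped that of S1. All 3 S3 libraries had 0 counts. Lin+ held 18619.7, 15357 and 12794, and per kilobase of its longest coding transcript Coro1a had the highest Lin+ level of the 8 genes, 8924 normalized counts.

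Fmnl1 (ENSMUSG00000055805, chromosome 11, 103171004 to 103198902, plus strand) encodes a formin, a protein that elongates actin filaments. The level in S0-Low was 5656, 4173 and 4375, in S0-Medium 2714, 1158 and 1758, and in S1 224, 211 and 301. Up to S1 the fall of Fmnl1 was slower than that of Ptprc and Coro1a, with 5.18% of the S0-Low mean left. Then it dropped to 0, 12.8 and 1.47 in S2 and to 0 in every S3 library. This step from S1 to S2 was its largest, a drop by 3.69 on the scale of log2(CPM + 0.5), and was the largest for 3 of 3 replicate numbers. Lin+ held 8757, 7547 and 7651, the tightest values among the genes with a Lin+ level above S0-Low.

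Rin3 (ENSMUSG00000044456, chromosome 12, 102282840 to 102390854, plus strand) encodes an effector of Ras that activates Rab5-type GTPases on early endosomes. Its level was 5552, 4325 and 7063 in S0-Low, 3301, 856 and 1229.6 in S0-Medium, and 130.1, 162 and 101 in S1. In S2 the raw counts were 0, 31 and 0, so the S2 mean rested on replicate 2. All 3 S3 libraries had 0 counts. Lin+ held 11342, 17174 and 17836, and the Lin+ mean was 274% of that of S0-Low.

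Arap1 (ENSMUSG00000032812, chromosome 7, 101347921 to 101412586, plus strand) encodes a GTPase-activating protein that inactivates Arf GTPases. Its S0-Low values were 2638, 1935 and 2978, and those of S0-Medium, 2135, 1073 and 1798, overlapped them. In S1 the level was 691, 591 and 561 and in S2 310.04, 314 and 235. S3 held 0, 2 and 1 raw counts. In contrast to the genes above, Arap1 still had 24.4% of its S0-Low mean in S1 and 11.4% in S2. Lin+ held 4699.9 in replicate 1, 3855 in replicate 2 and 5699 in replicate 3.

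Agap2 (ENSMUSG00000025422, chromosome 10, 127075269 to 127093170, plus strand) encodes an Arf GTPase-activating protein that also acts in phosphoinositide 3-kinase signalling. S0-Low held 2769.8, 1949 and 3055, and S0-Medium 1592, 963 and 2244, with overlap. S1 held 298, 407 and 692, S2 69.0, 146 and 139, and S3 0, 0 and 1 raw counts. Agap2 was the only one of the 8 with a Lin+ mean below that of S0-Low, at 2422, 2423 and 2479, and those values lay inside the S0-Low range.

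Kif13a (ENSMUSG00000021375, chromosome 13, 46749087 to 46929917, minus strand) encodes a kinesin motor that carries endosomal vesicles towards the cell periphery. Its level changed least before S3. S0-Low held 5313, 3894 and 4391, S0-Medium 5195, 3195 and 4515, and Lin+ 5825, 4494 and 5458, and all 3 populations overlapped. S1 held 2728, 2236 and 2496 and S2 1828, 1598 and 1209, below every library of the population before. S3 held 77.5, 124 and 173. Kif13a was the only member with more than 3 counts in an S3 library, and kept 2.75% of its S0-Low mean there (SD 1.05).

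**Figure D1:**
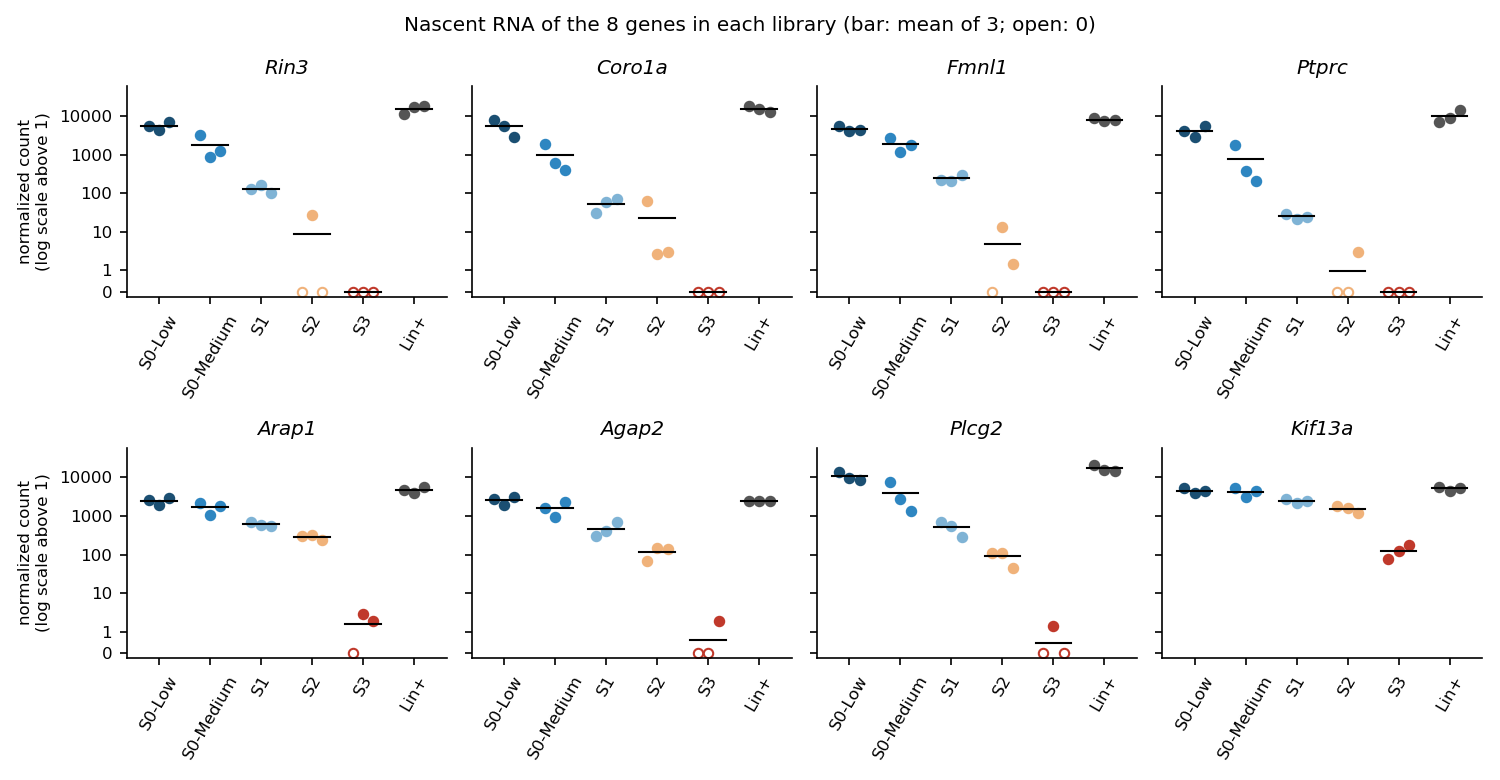
Normalized count of each gene in each of the 18 libraries (y axis, logarithmic above 1 and linear below; x axis, the 6 sorted populations; points are libraries, bars the mean of 3, open points a value of 0). The S3 libraries of Rin3, Coro1a, Fmnl1 and Ptprc are all at 0, while those of Kif13a sit between 77.5 and 173.

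The genes differed in when the level dropped. For Ptprc, Coro1a, Rin3, Plcg2 and Fmnl1 the mean was under 50% of S0-Low in S0-Medium, at 17.8% to 39.6%, and under 10% in S1, at 0.603% to 5.18%. The S0-Medium means rested on replicate 1. Without it Ptprc and Coro1a were already under 10% in S0-Medium, at 7.04% and 9.40%, and Rin3 and Plcg2 were at 18.5% and 19.1%, while Fmnl1 was at 30.8%. Arap1 and Agap2 first passed under 50% in S1, at 24.4% and 17.97%, and Kif13a in S2, at 34.1%. With RLE factors, library totals or DESeq2 size factors Kif13a was already under 50% in S1, at 47.8% to 48.8%, against 54.9% with TMM. Agap2 was under 10% in S2, at 4.56%, and Arap1 and Kif13a with TMM only in S3. Under those other scalings Arap1 was already under 10% in S2, at 9.04% to 9.46%. On the scale of log2(CPM + 0.5), the step with the largest fall was from S2 to S3 for Arap1, Agap2 and Kif13a, for 3 of 3 replicate numbers each, with changes of -4.10, -2.96 and -3.51. For Ptprc, Coro1a, Rin3 and Plcg2 it was from S0-Medium to S1, with changes of -3.71, -3.58, -3.40 and -2.64. This was the largest step for 2 of 3 replicate numbers of Ptprc and Rin3 and for 1 of 3 of Coro1a and Plcg2. For Coro1a the step from S0-Low to S0-Medium was the largest for 2 of 3. All steps include S0-Medium replicate 1, and the largest step was not worked out without it. At 0.5 CPM the steps of Plcg2 from S0-Medium to S1 and from S2 to S3 were nearly equal, -2.64 and -2.60. With a pseudocount of 0.1 CPM the largest step was from S2 to S3 for Plcg2 (-4.57, 3 of 3 replicate numbers) and from S1 to S2 for Rin3 (-4.30, 2 of 3). For genes already near 0 in S2, no large later step is possible on this scale.

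Put as ratios, the 4 genes with 0 counts in S3 were at least 990.3-fold (Rin3), 952-fold (Coro1a), 830.3-fold (Fmnl1) and 732-fold (Ptprc) lower than in S0-Low, against a floor of 3 counts per library. With 1 to 3 counts over the 3 S3 libraries, the ratio was 17752 for Plcg2 (95% interval 3186 to 701157), 4277 for Agap2 (768 to 168915) and 1385 for Arap1 (474 to 6714), where the intervals cover counting error only. The ratio for Kif13a was 35.3 (30.8 to 40.6). Here and below, ratios with a counting interval pool counts and library sizes over the lower population, so they differ from ratios of the means. These sizes also depend on the scaling: with library totals the share of S0-Low left in S3 was 1.499% for Kif13a against 2.75% with TMM, 0.0335% for Arap1 against 0.0625%, 0.0115% for Agap2 against 0.0236% and 0.00258% for Plcg2 against 0.00447%.

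**Figure D2:**
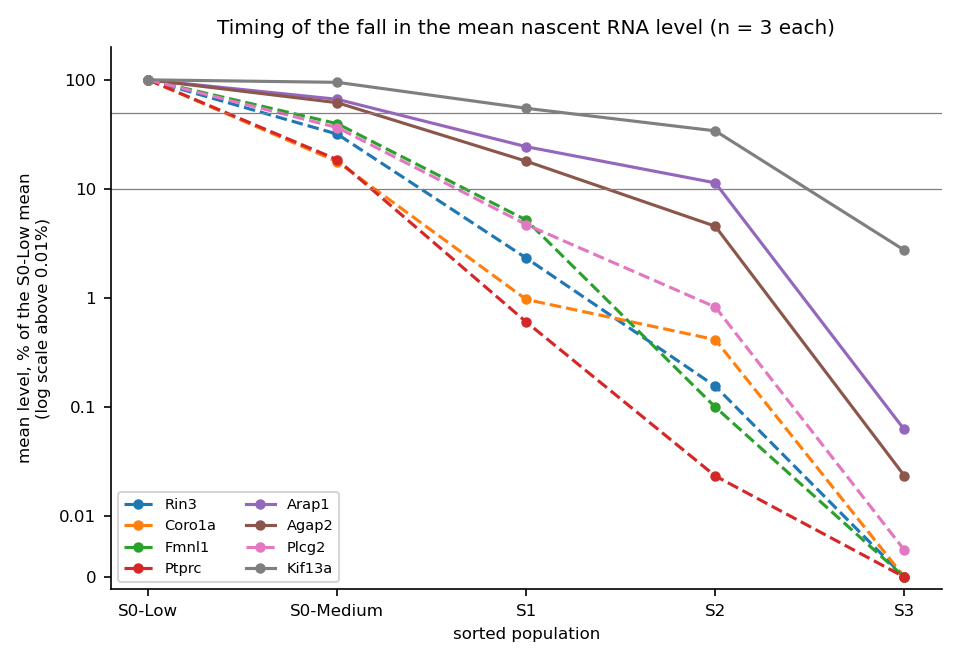
Mean level of each gene as a percentage of its S0-Low mean (y axis, logarithmic above 0.01% and linear below) over the 5 erythroid populations (x axis, n = 3 libraries each). Dashed lines mark the 5 genes under 10% in S1, solid lines Arap1, Agap2 and Kif13a, and the grey lines 50% and 10%.

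A measure that does not depend on scaling between libraries is each gene's share in the summed counts of the 8 genes within a library. Kif13a took 10.99% to 11.4% of them in S0-Low, 19.8% to 33.5% in S0-Medium, 52.7% to 56.7% in S1, 72.3% to 76.8% in S2 and 96.6% to 100% in S3. Plcg2 took 22.2% to 29.5% in S0-Low and 2.78% to 5.01% in S2. Ptprc took 8.53% to 14.0% in S0-Low and 0.511% to 0.609% in S1. In Lin+ the share of Kif13a was 5.96% to 7.25%, under its share in any S0-Low library. The 8 genes together made up 1274 to 1658 CPM (counts scaled to a fixed library total) in S0-Low, 1.78 to 3.19 CPM in S3 and 2659 to 3064 CPM in Lin+.

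**Figure D3:**
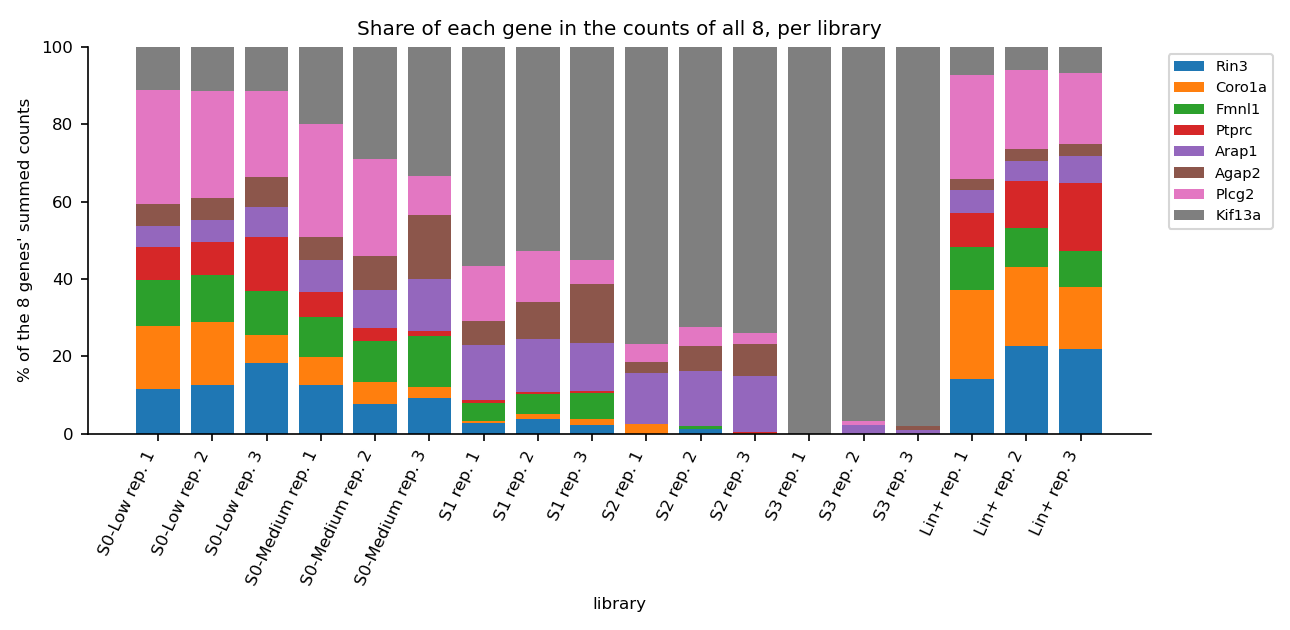
Share of each gene in the summed counts of the 8 genes (y axis, percent) in each of the 18 libraries (x axis). The share of Kif13a goes from 10.99% to 11.4% in S0-Low to at least 96.6% in S3 and is lowest in Lin+.

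S1 was compared with S0-Medium to ask what changes once CD71 is high. All 8 genes were lower in each S1 library than in any S0-Medium library, as were 10.2% of the 16555 genes tested. In edgeR's quasi-likelihood test, with p-values adjusted over all genes by the method of Benjamini and Hochberg, 0 of the 8 passed an adjusted p of 0.05, and the share of all genes called lower was 0%. The fitted log2 fold changes ran from -4.94 for Ptprc (SE 0.87, adjusted p = 0.0701) to -0.80 for Kif13a (SE 0.33, adjusted p = 0.615), with a median of -2.95 beside -0.02 over all genes. Without S0-Medium replicate 1, the library with the highest myeloid markers of its population, Ptprc was at -3.59 and the median at -2.35. At an unadjusted p under 0.05 all 8 passed, with 5.18% of all genes. DESeq2 called 7 of the 8 lower, all but Kif13a, with 2.17% of its genes, and edgeR with no filter on low counts called 5, with 0.848% of all genes. With the replicate number as a block, edgeR called Plcg2 (log2 fold change -2.76, adjusted p = 0.0137) and Ptprc (-4.65, adjusted p = 0.0342), with 0.175% of all genes. The summed myeloid markers were 572 to 6737 in S0-Medium and 71.6 to 124 in S1, and their part in the result was not tested.

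Between S2 and S1 the ranges of 7 genes did not overlap, Coro1a being the exception, and 7.77% of all genes tested behaved in this way in the lower direction. With edgeR 0 of the 8 were called, and 0% of all genes were called lower. The fitted change of Fmnl1 was -5.48 (SE 0.81, adjusted p = 0.152), and it rested on S2 replicate 2, without which it was -8.19. The S2 counts of Rin3 and Ptprc also came from 1 library each, so the sizes of these 3 genes were not ranked. Fitted changes of Arap1 and Kif13a were smaller, -1.10 (SE 0.43) and -0.69 (SE 0.33). Unadjusted, 6 of the 8 had a p under 0.05, all but Coro1a and Kif13a, with 3.03% of all genes. DESeq2 called 4 lower, Fmnl1, Ptprc, Agap2 and Plcg2, with 0.952% of its genes. With no filter on low counts edgeR called 4, Rin3, Fmnl1, Ptprc and Plcg2, with 0.208% of all genes. A replicate block in edgeR gave 0 calls, with 0% of all genes called lower, and a lowest adjusted p of 0.0702. All 8 then had an unadjusted p under 0.05, as did 620 of the 16555 genes tested in the lower direction.

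Over both steps together, S2 against S0-Medium, all 8 genes fell in edgeR's test, while 2.55% of the 16555 genes tested were called lower. S0-Medium and S2 lie between S0-Low and S3, so a fall here is partly set by the choice of the genes. The genes tested are thus no matched background for the 8. The median log2 fold change of the 8 was -5.45 beside -0.09 over all genes, and -4.59 without S0-Medium replicate 1, where Plcg2 was also at -4.59. Plcg2 fell from a mean of 3931 ± 3329 (SD, n = 3) to 89.1 ± 37.8, a log2 fold change of -5.46 (SE 0.67, adjusted p = 0.00102). Fmnl1 fell from 1877 ± 785 to 4.75 ± 6.99, a log2 fold change of -8.42 (SE 0.90, adjusted p = 0.00102). Ptprc, with 2 counts over the S2 libraries, was lower by a ratio of 1004 (95% counting interval 278 to 8290, adjusted p = 0.0019 by edgeR). Its fitted log2 fold change was -9.68, or -8.34 without S0-Medium replicate 1. The log2 fold change was -7.51 for Rin3 (SE 1.16) and -5.44 for Coro1a (SE 1.10). Both sizes rested on 1 S2 library. Without S2 replicate 1 the value of Coro1a was -8.41, and without S2 replicate 2 the other S2 libraries of Rin3 held 0 counts, so that the fitted -13.71 is no measure of size. Without S2 replicate 2 the value of Fmnl1 was -11.12. The smallest fall in any fit without 1 library was -6.81 for Rin3 and -4.58 for Coro1a. The smaller falls were those of Agap2, -3.76 (SE 0.58), Arap1, -2.55 (SE 0.45), and Kif13a, -1.48 (SE 0.33, adjusted p = 0.0212). The call of Coro1a was lost without S0-Medium replicate 1 or S2 replicate 3, and that of Kif13a without S0-Medium replicate 1, S2 replicate 2 or S2 replicate 3, which left 6 to 8 of the 8 called. A fit of only these 2 populations called 6, without Coro1a (adjusted p = 0.0796) and Kif13a (adjusted p = 0.0569), and 185 genes lower in all. Library totals in place of TMM turned the split of all calls from 422 lower and 210 higher into 521 and 104. The summed myeloid markers were 51.4 to 136 in S2, and the stem and progenitor markers 1291 to 8115, and their part in this result was not tested either.

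Lin+ against S0-Medium asks how the level in cells of other lineages stands against that of early erythroid progenitors. Of the 8 genes, 6 were higher in Lin+, beside 2.64% of the 17755 genes tested in the fit of all 18 libraries. Coro1a rose by a log2 fold change of 4.01 (SE 0.88, adjusted p = 0.0177), Ptprc by 3.72 (SE 0.69, adjusted p = 0.00697) and Rin3 by 3.11 (SE 0.78, adjusted p = 0.0371). Plcg2, Fmnl1 and Arap1 rose by 2.13 (SE 0.53), 2.09 (SE 0.55) and 1.51 (SE 0.36). Without S0-Medium replicate 1 the rises were larger, 5.11 for Ptprc, 4.93 for Coro1a, 3.89 for Rin3 and 3.07 for Plcg2, with a median of 2.76 over the 8 in place of 2.11. The differences of Agap2, 0.61 (SE 0.45, adjusted p = 0.600), and Kif13a, 0.29 (SE 0.30, adjusted p = 0.750), did not pass. These calls were fragile. Without any single library the count ran from 1 to 6: it was 1 without Lin+ replicate 1, S0-Medium replicate 2 or S0-Medium replicate 3, and 2 without Lin+ replicate 2 or Lin+ replicate 3, and Ptprc was called in all 6 of these fits. CD45R in the sorting panel is a form of the Ptprc product, so the result for Ptprc is partly set by the sort. Myeloid markers were at least 107888 in sum in Lin+ against at most 6737 in S0-Medium. Markers of megakaryocytes (13118 to 38622 in Lin+, 3398 to 6776 in S0-Medium), of mast cells and basophils (8238 to 17138 and 61.0 to 304) and of endothelium (5532 to 9633 and 736 to 2115) were higher in Lin+ too. So were those of lymphoid cells (1687 to 3649 in Lin+, 123 to 1154 in S0-Medium). The part of any of these in the difference was not tested.

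All 8 genes were higher in Lin+ than in S2, beside 16.3% of all genes tested. The log2 fold change was smallest for Kif13a, 1.77 (SE 0.31, adjusted p = 0.000525), followed by Arap1, 4.05 (SE 0.40). It was 13.43 for Ptprc (SE 1.13, adjusted p = 1.96e-06) and 10.57 for Rin3 (SE 1.11, adjusted p = 1.17e-05), sizes that rested on S2 replicate 3 and S2 replicate 2, without which S2 held 0 counts of the gene, so the genes near 0 in S2 were not ranked. For Ptprc the ratio of Lin+ to S2 was 13214 (95% counting interval 3658 to 109111), again over 2 counts in S2. Here too the sort on CD45R bears on Ptprc. All 8 stayed called without any single library. With library totals the split of all calls was 3227 higher and 955 lower, against 2896 and 1480 with TMM. Summed myeloid markers were 51.4 to 136 in S2 and 107888 to 189605 in Lin+. Those of mast cells and basophils were 0 to 5.11 and 8238 to 17138, and erythroid markers 172964 to 404482 and 8777 to 11232. The part of these cells in the differences was not tested.

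**Figure D4:**
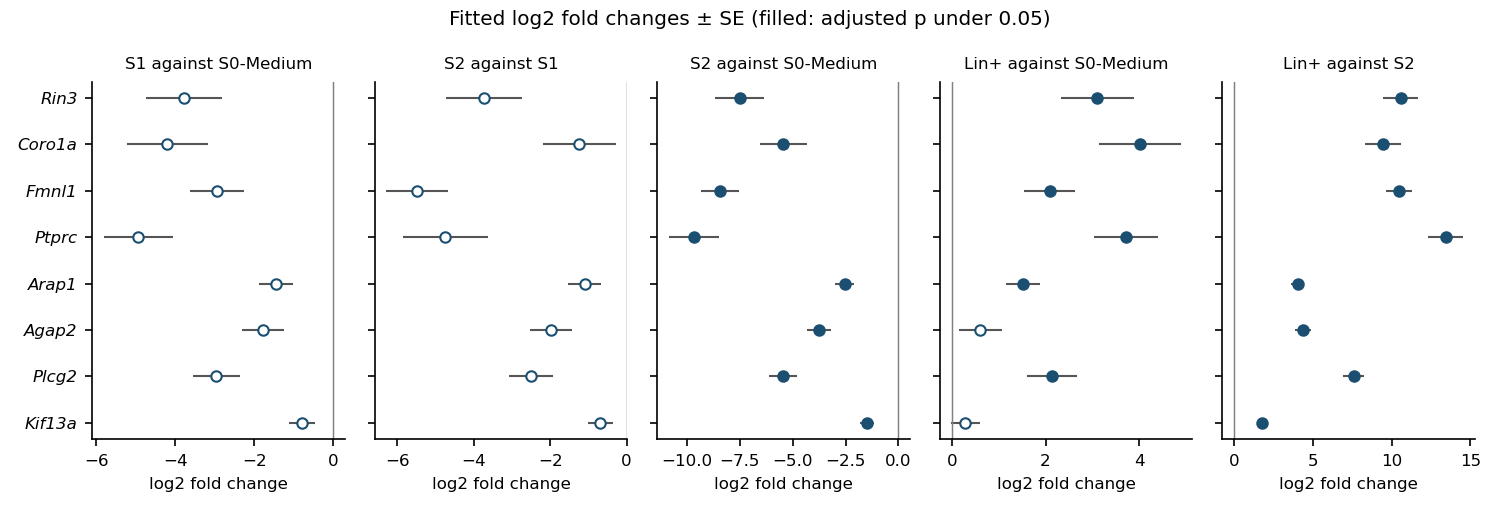
Fitted log2 fold change of each gene with its standard error (x axes, with a scale of their own in each panel) in the 5 tested comparisons. Filled points have an adjusted p under 0.05: none in S1 against S0-Medium or S2 against S1, all 8 in S2 against S0-Medium and in Lin+ against S2, and 6 in Lin+ against S0-Medium.

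Close relatives of the 8 genes were compared next, in S3 against S0-Low, where 22.4% of the 16555 genes tested were called lower and 13.4% higher by edgeR. With library totals these calls were 6228 and 1156 in place of 3712 and 2220, and the median log2 fold change of all genes moved by -0.82, to -1.36. Of 20 paralogues, 19 were tested, and 12 were lower and 1 was higher. Their median log2 fold change was -4.84 beside -0.54 over all genes. Among the 4 largest changes, the ratio of S0-Low to S3 was 10425 for the coronin Coro2a (95% counting interval 1871 to 411745), 1425 for Arap2 (256 to 56283) and 597 for Rin2 (107 to 23571), each with 1 count in S3. Arap3 fell by 8.44 on the log2 scale (SE 0.97, adjusted p = 2.16e-05), a size that rested on 14 counts in 1 S3 library with 0 in the other two.

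Not every closest relative fell with its partner. Rin2, Ptpre (-8.10, SE 0.97), Plcg1 (-6.02, SE 1.10), Fmnl3 (-5.23, SE 1.57), Arap3 and Agap1 (-4.84, SE 0.69) were lower in S3. All 65 counts of Fmnl3 in S3 and 83 of the 86 of Plcg1 came from 1 library, on which those sizes rested. Coro1c, a coronin found in most cell types, had 4804 normalized counts in S0-Low and a log2 fold change of -0.50 (SE 0.40, adjusted p = 0.340). Kif13b, the closest kinesin to Kif13a, had a level of 2466 in S0-Low, 2646 in S1 and 2883 in S2, and its change to S3, -0.49 (SE 0.37, adjusted p = 0.316), did not pass either. Ptpra, a broadly expressed receptor phosphatase, rose by 1.15 (SE 0.31, adjusted p = 0.00988), and was named after its value was seen. This rise lost its call with library totals, without S0-Low replicate 2 and without S3 replicate 3.

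Immunoreceptor signalling genes, the kinases, adaptors and lipid enzymes that work beside CD45 and the phospholipase, were lower in 19 of 24, and none was higher. Of all genes tested, 22.4% were called lower and 13.4% higher. The median log2 fold change of the list was -6.52, or -5.56 with the 5 genes at 0 in S3 set at their bound, beside -0.54 over all genes. Lcp2 (the adaptor SLP-76) was at least 289.6-fold lower in S3, Rasgrp2 (a Rap activator) at least 183-fold, Tyrobp (the adaptor DAP12) at least 55.1-fold and Pik3r5 (a regulator of phosphoinositide 3-kinase gamma) at least 51.1-fold. These 4 rank first by fitted values over 0 counts. Pik3cd, the catalytic subunit of phosphoinositide 3-kinase delta, named after its values were seen, went from 6853 to 4.81 normalized counts (log2 fold change -10.23, SE 0.92), where all 10 counts in S3 came from 1 library. Among the 5 that did not pass was Sh3bp2, an adaptor named after its values were seen, which had 1762 normalized counts in S0-Low and 2451 in S3. The summed level of the 24 genes was 60287 to 75511 in S0-Low, 2947 to 7630 in S3 and 129003 to 142688 in Lin+. Summed myeloid markers were 16597 to 27863 in S0-Low and 1.84 to 176 in S3, and their part in the calls of this list and of the other lists was not tested.

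Leukocyte actin regulators, which share the cell cortex with coronin and formin, were lower in 22 of 24, with a median log2 fold change of -4.95. The ratio for Arhgef6, a Rac and Cdc42 activator, was 3012 (95% counting interval 541 to 118980). The log2 fold change was -9.15 for Fgd3 (SE 1.37), -9.15 for Hcls1 (SE 1.49) and -8.43 for Arhgap25 (SE 1.26). The S3 counts of these 3 genes, 4, 6 and 16, came from 1 library each, on which the sizes rested. The 2 that did not pass were Lcp1 (plastin), at -1.57 (SE 0.75), and Fermt3 (kindlin of blood cells), at -0.80 (SE 0.33). Both were named after their values were seen.

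Genes of endosomes and of Arf and Rab trafficking moved both ways. Of 24, 10 were lower and 5 higher, beside 22.4% and 13.4% of all genes tested. Without any single library 7 to 9 were lower. The median log2 fold change was -0.04 beside -0.54 over all genes. The blood cell Arf activator Cyth4 was lower by a ratio of 4977 (95% counting interval 893 to 196584), and Adap1, Snx9 and Snx20 had log2 fold changes of -6.58 (SE 1.49), -5.62 (SE 1.26) and -4.84 (SE 1.78), sizes that rested on 1 S3 library each, with 0 counts in the other two. Arf5 rose by 3.67 (SE 0.65, adjusted p = 0.000609), from a mean of 547 to 6978, and Rabgef1, Rab5b, Rab5a and Arf6 rose by 1.95, 1.85, 1.43 and 0.88. The 5 that rose were named after their values were seen. With library totals 2 of the 24 were higher, as they were without S0-Low replicate 1, S0-Low replicate 2 or S3 replicate 3, and 8 were higher with the replicate block.

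**Figure D5:**
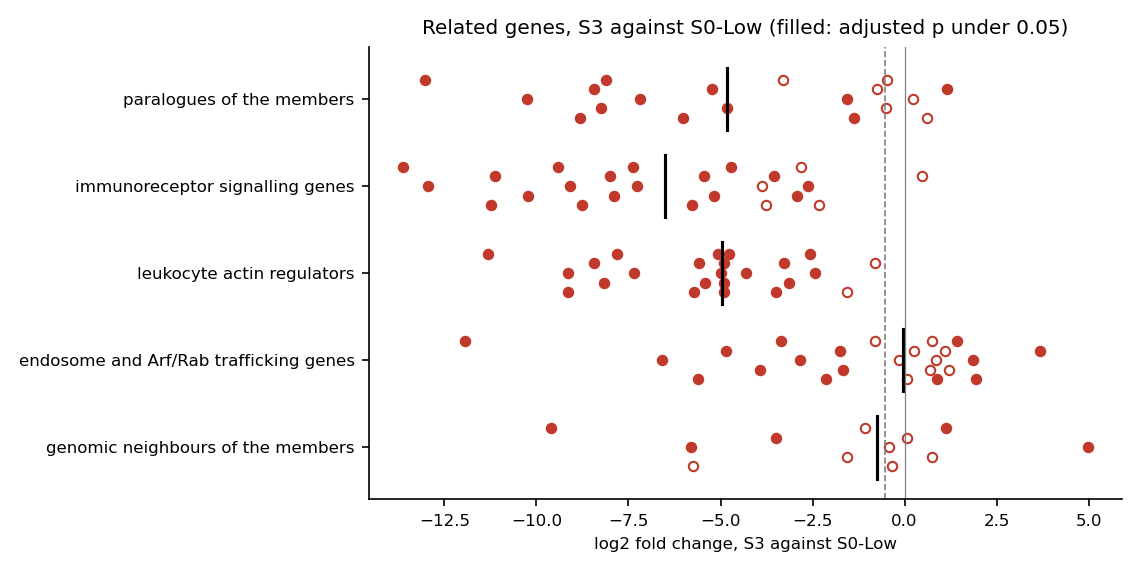
Log2 fold change of S3 against S0-Low (x axis) for the tested genes of 5 lists (rows; 1 point per gene, spread in height for visibility; black bar, median of the list; dashed line, median of all genes, -0.54). Filled points have an adjusted p under 0.05, and the median is -6.52 for immunoreceptor signalling genes and -0.04 for trafficking genes.

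Of 16 genes next to the members on the chromosome, 12 were tested, and 3 were lower and 2 higher in S3, near the shares of 22.4% and 13.4% over all genes. Their median was -0.75, or -0.38 with the 2 genes at 0 in S3 at their bound. Tspan31, 4297 bp from Agap2, fell by 3.49 (SE 0.90), a size that depends on an uneven S3 level (mean 78.4, SD 113). Sdr42e1, 26257 bp from Plcg2, was called lower. Its S0-Low mean rested on 1 library (51.1, 79.4 and 834 normalized counts, in rising order). Nhlrc1, 82640 bp from Kif13a, was at least 17.8-fold lower, with 1 S0-Low library at 0 and the other two at 81.8 and 223. On the other side of Kif13a, Nup153, a nuclear pore gene, rose by 1.11 (SE 0.28). Lgmn, the lysosomal protease legumain, lies 3228 bp behind Rin3 and rose by 4.97 (SE 0.81) from a mean of 103 in S0-Low, while Rin3 went to 0. Bola2 and Mapk3 beside Coro1a (-1.57, SE 1.07, and 0.07, SE 0.56), Hexim2 beside Fmnl1 (0.75, SE 0.67), Stard10 and Pde2a beside Arap1 (-1.09, SE 1.11, and a mean of 6.73 normalized counts in S0-Low with 0 in S3), Os9 beside Agap2 (-0.42, SE 0.27) and Cmip beside Plcg2 (-0.34, SE 0.45) did not pass. Slc24a4, Efcab15, Nr5a2 and Atp6v1g3 were too low to test. With library totals 5 neighbours were lower and 1 was higher.

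The genes with a profile most like the mean of the 8, by Pearson's r of log2(CPM + 0.5) over 18 libraries among 15362 named genes, were Celf2 (r = 0.992), Laptm5 (0.989), Rassf5 (0.988), Pde5a (0.986), Rhoh (0.985) and Fam105a (0.984). The 18 points of each share libraries and depth, and these are descriptions. Celf2, an RNA-binding regulator of splicing, had 8403 normalized counts in S0-Low, 272 in S1, 6.68 in S3 and 13723 in Lin+. Laptm5, a lysosomal membrane protein of blood cells, went from 4688 in S0-Low to 431 in S1 and 1.44 in S3. Rassf5, an effector of Ras and Rap, Rhoh, a GTPase of blood cells, and Fam105a were at 0 in every S3 library. Within the 8, r with the mean of the other members was 0.991 for Plcg2 and 0.852 for Kif13a, the highest and the lowest.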

How the data were processed

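The 18 libraries hold RNA labelled with 4sU in 6 sorted populations. Per the labels and the study's methods, the authors made stranded total RNA libraries with 14 cycles of PCR, sequenced 75-bp read pairs and counted them with kallisto (0.43.0, GRCm38 named as genome build); the transcript index is not given in the sources used here. The deposited values are estimated counts per gene with no normalization, and were rounded to whole numbers. Library totals of 9452476 to 40567976 set the precision, and intervals and floors cover counting error only, since reads carry no molecular identifiers.

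Genes were filtered (filterByExpr) and tested two-sided with edgeR (4.0.16, R 4.3.3), with TMM factors and glmQLFTest, at a Benjamini-Hochberg adjusted p under 0.05 over all genes kept: 16555 in 1 fit of the 15 erythroid libraries and 17755 in the fit of all 18. The biological coefficient of variation was 0.795 and 0.771. DESeq2 (1.42.0) was an alternative. The procedure was tested on simulated data. Of the 31-base stretches of the members' transcripts, none was shared with another gene except 2 of 5631 of Agap2.

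The members and lists were chosen with earlier results of these data known. Named were all 8 genes, of each list the 4 largest changes among called genes, the closest paralogue of each member, both neighbours on the chromosome and the 6 genes most alike; other names are marked in the text, the remaining genes of a list are only counted, and 1 item is not reported here. Symbols came from a table of gene names. Promoters came from RefSeq (GRCm38.p6) and matched all 8 genes. Replicate numbers were taken to pair libraries where each same-numbered pair of deviations from the population means correlated above 0.1: S1 with S0-Medium (0.366, 0.388 and 0.408), S2 with S1 (0.286, 0.309 and 0.388) and Lin+ with S2 (0.135, 0.130 and 0.162). The labels do not say what a number stands for. The main fits did not use these pairs, and the replicate block was an alternative. Alternatives were RLE factors, library totals, other count filters, DESeq2, a replicate block, fits of the compared populations only, robust empirical Bayes and leaving out each library. No replicate pair agreed within sampling noise.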

Additional observations from a re-analysis of the deposited data

How the results depend on the processing

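Of 548 alternative values of single genes in the 5 tested comparisons, 494 kept their direction and call, 30 lost and 24 gained a call, and none changed direction. In S1 against S0-Medium, where edgeR called 0 of 8 genes, 7 were lower with DESeq2, 5 with no filter and 2 with the replicate block, and 0 to 0 without any single library. In S2 against S1 (0 called), 4 were lower with DESeq2 and 4 with no filter, and 0 to 2 without any single library, the 2 without S2 replicate 2. A minimum of 10 counts in every compared library left 4 testable genes in S2 against S0-Medium and in Lin+ against S2, and 4 of these 4 were called in each. A fit of only the 2 compared populations called 6 in S2 against S0-Medium. Without any single library the calls ran from 6 to 8 in S2 against S0-Medium, from 1 to 6 in Lin+ against S0-Medium and stayed at 8 in Lin+ against S2. In S3 against S0-Low they ran from 10 to 13 lower and 0 to 1 higher for paralogues, 18 to 19 lower for immunoreceptor genes, 21 to 22 lower for actin regulators, 7 to 9 lower and 2 to 6 higher for trafficking genes, and 2 to 3 lower and 2 to 2 higher for neighbours. With library totals 0 paralogues, 2 trafficking genes and 1 neighbour were higher and 5 neighbours lower, and with the replicate block 8 trafficking genes were higher.

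The replicate numbers did not meet the pairing threshold in S2 against S0-Medium (correlations 0.0846, 0.212 and 0.194), Lin+ against S0-Medium (0.0263, 0.191 and 0.0681) and S3 against S0-Low (0.0352, 0.0956 and 0.0557). The replicate block left 8 genes called in S2 against S0-Medium and 6 in Lin+ against S0-Medium. It changed the number of calls among the 8 genes in no comparison other than S1 against S0-Medium. The 5 genes under 10% of S0-Low in S1 stayed 5 under each scaling and without each S0-Low, S0-Medium, S1 or S2 library (those of the last 3 populations chosen after seeing the data). Under 50% in S0-Medium were 5, or 6 without S0-Medium replicate 3. With RLE factors, library totals or DESeq2 size factors 7 genes were under 10% in S2, against 6 with TMM, the added gene being Arap1. The largest step was the one given for 6 of 8 genes at a pseudocount of 0.1 CPM (all but Rin3 and Plcg2) and for 8 at 1 CPM. Of the 6 genes most alike, 2 were also among the first 6 by Spearman's rank correlation and 4 by Pearson's r over the 15 erythroid libraries. For the genes with 0 to 3 counts in S3, depth limits how large a fall can be stated.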
